A study of Mus musculus with 8 samples.

Results

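The coagulation and fibrinolysis genes described here were Vwf, Thbd, Procr, Tfpi, Plat and F8, which are 6 of the 16791 genes in a count table of sorted cardiac endothelial cells (ECs). Each was taken by its name in the table, and all 6 were found there. They were compared between 4 healthy mice and 4 mice at 7 days post-MI. The mice of both groups were adult Pdgfb-iCreERT2-R26R-Brainbow2.1 animals, in which tamoxifen switches on Confetti colours in cells that express Pdgfb, and each had received tamoxifen at 150 mg/kg 21 days before the heart was taken. For MI, the left anterior descending artery was tied off for good 14 days after tamoxifen. The healthy mice were not operated on, so MI and surgery cannot be told apart. Cells were sorted as CD31+Confetti+Podoplanin-, which keeps only cells that had recombined in the Pdgfb lineage and is meant to leave out lymphatic cells that carry podoplanin, and 1 droplet library was made from each heart.

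The endothelium holds blood fluid and starts clotting where a vessel is damaged. Von Willebrand factor (Vwf) is stored in the Weibel-Palade bodies of ECs, tethers platelets, and carries factor VIII (F8), the cofactor that speeds the activation of factor X. Thrombomodulin (Thbd) and the endothelial protein C receptor (Procr) act together on the EC surface to turn thrombin into an activator of protein C, an anticoagulant. Tissue factor pathway inhibitor (Tfpi) blocks the first step of clotting, and tissue plasminogen activator (Plat) makes plasmin, which dissolves fibrin.

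The table held 31028 cells. Healthy libraries held 6764977 to 8793655 unique molecular identifiers (UMIs, 1 for each captured RNA molecule) and MI libraries 15865234 to 27244947. Libraries of healthy mice shared cells. Healthy mice 228 and 239 had 2041 barcodes in common, and 2030 of these held the same molecules in both, whereas pairs with no such copies shared 10 to 40 barcodes. A total of 2333 copies, all in healthy libraries, were therefore left out, the smaller copy of each cell being dropped. Which mouse these cells came from is not known, so the values of healthy mice 227, 228 and 239 may rest partly on cells of another mouse. ECs were kept by a gate, under which the UMIs of 8 EC markers had to exceed those of each list of markers of another cell type. This left 26621 cells, with a median of 1869 to 2767 UMIs per cell in healthy and 3397 to 4673 in MI mice. The 8 markers summed to 6569 to 7291 CPM in healthy and 6565 to 7071 CPM in MI mice, with 1 of them lower after MI, where CPM is the number of UMIs of a gene per 1000000 UMIs of the same cells. Markers of other cells also moved with MI inside the gate. The summed level of 14 haematopoietic genes was 24.2 to 164 CPM in healthy and 295 to 502 CPM in MI mice, with 8 of the 14 higher after MI and none of them at 0 in all mice, and their part in the results was not tested. Of 7 fibroblast markers 4 were higher and 1 lower, at sums of 10.6 to 29.4 CPM in healthy and 27.7 to 43.4 CPM in MI mice, and of 8 pericyte or smooth muscle markers 3 were higher and 1 lower, at 52.0 to 118 and 74.4 to 90.9 CPM. Their part was not tested either, and some members were at or above EC levels in such cells of MI mice, with Procr at 43.5 CPM in cells gated as pericytes or smooth muscle and Tfpi at 73.6 and Plat at 223 CPM in those gated as fibroblasts. All 4 platelet markers were detected too, with 1 higher and 2 lower after MI, at a sum of 26.5 to 52.4 CPM in healthy and 34.1 to 41.1 CPM in MI mice. The summed level of 5 lymphatic markers was 3.32 to 104 CPM in healthy and 37.9 to 219 CPM in MI mice, with none at 0 in all mice. Of the 4 tested none was called by edgeR, with Prox1 nearest (log2 fold change 1.44, unadjusted p = 0.024, adjusted p = 0.0601) and the rest above an unadjusted p of 0.05, and their part was not tested. Xist was near 0 in healthy mouse 227 and MI mouse 244 (1.66 and 0.511 CPM) and above 1000 CPM in the other 6 mice.

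ECs were placed in classes by the UMIs of 1 marker each after every cell had been thinned to 1000 UMIs: Gja4 for arterial, Car4 for capillary, Nr2f2 for venous, at least 2 UMIs of Plvap for Plvap-high and Ackr1 for venular cells. Cells that also met the Plvap or Ackr1 rule were not counted as venous, while Plvap-high cells could also hold Nr2f2 and venular cells Nr2f2 or Plvap. A single UMI is a sparse basis, and only 7378 ECs received a class while 18376 met none of these rules. Markers that the rule did not use were then compared with the capillary class. All 8 other arterial markers were higher in the arterial than in the capillary class in both groups, 3 of 4 venous markers tested were higher in the venous class in healthy mice and 4 of 5 in MI mice, and in MI mice all 5 were higher in the Plvap-high class and all 5 in the venular class. The Plvap-high and venular classes were nearly confined to MI, with 7 and 1 cells over the healthy mice against 938 and 242 over the MI mice, so that they could not be compared between groups. Of the ECs of a healthy mouse 21.2% ± 1.92 were capillary, against 9.30% ± 4.41 after MI (mean and SD of 4 mice).

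Over all ECs, 4 members were higher in MI than in healthy mice (Vwf, Procr, Tfpi and F8), Thbd was lower, and Plat did not pass the test. That is 5 of 6 members called by edgeR's quasi-likelihood test at an adjusted p of 0.05, against 37.6% of the 12262 genes tested (18.7% higher, 18.9% lower). The median log2 fold change was 0.97 for the members and -0.02 for all genes tested. The levels of 5 members did not overlap between the groups, as was the case for 35.7% of all genes tested. With the copied cells kept, the same 5 members were called. The F8 call, unlike the other 4, was lost under 4 other settings and when any 1 of 5 mice was left out, as given with that gene. A level here is a share of all UMIs, and MI ECs held more UMIs per cell (medians of 3397 to 4673 against 1869 to 2767). In these libraries a lower level over all ECs can reflect fewer cells that carry a gene or less of its RNA in each. It can also reflect more RNA of other genes. These cannot be told apart from sums.

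**Figure D1:**
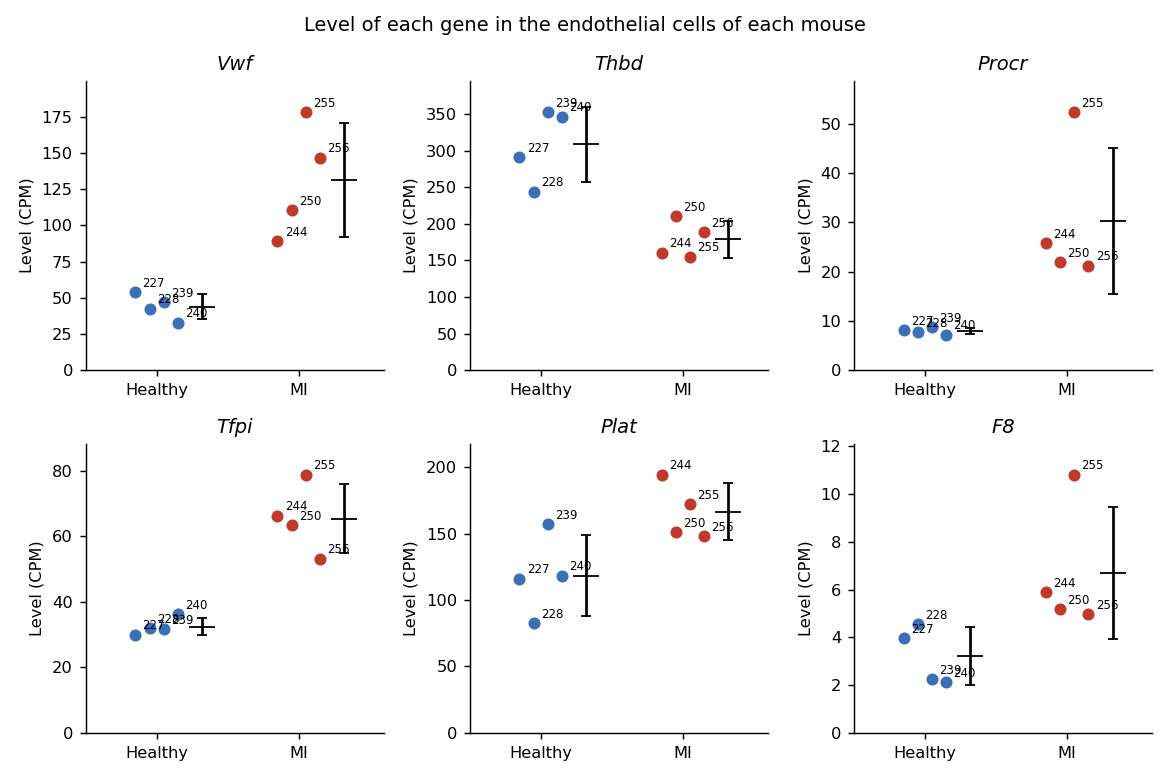
Level of each gene in CPM over the ECs of each mouse, on axes that start at 0. Each point is 1 mouse with its number, and the bar beside each group is the mean with 1 SD. MI mice lay above all healthy mice for Vwf, Procr, Tfpi and F8 and below them for Thbd, while the groups overlapped for Plat.

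Vwf lies on chromosome 6 (125546774 to 125686679, plus strand, GRCm38). Its level was 53.7, 42.5, 46.8 and 32.7 CPM in healthy mice 227, 228, 239 and 240, and 89.1, 111, 178 and 147 CPM in MI mice 244, 250, 255 and 256. Every MI mouse was above every healthy mouse, and mouse 255 was the highest. The means were 43.9 ± 8.76 and 131 ± 39.4 CPM (SD over 4 mice in each group, here and in what follows unless n is given), with a log2 fold change of 1.49 (SE 0.22, adjusted p = 0.00102). At 1000 UMIs per cell, 2.49% ± 0.28 of healthy and 8.66% ± 2.49 of MI ECs held a Vwf UMI (p = 0.0286, two-sided exact permutation test, the smallest p that 4 mice against 4 allow). Among cells gated as haematopoietic in MI mice, 4.74% did (57 of 1203 cells, median depth 7003 UMIs against 4130 in MI ECs), and their pooled Vwf level was 87.4 CPM. In healthy mice 3.57% of such cells did (5 of 140), at 47.0 CPM. The share of healthy ECs was below that of these cells and the healthy level was near theirs, above it only in mouse 227. Healthy cells gated as pericytes or smooth muscle (1 of 215, 16.6 CPM) and as erythroid (0 of 50, 3.41 CPM) held less Vwf. Those gated as fibroblasts held more (1 of 26, 67.9 CPM), so the level of free Vwf RNA is not known. Vwf RNA was also seen in the 36 healthy cells that the gate called platelets, at 25 UMIs or 399 CPM.

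Vwf spanned the widest range between classes. In MI mice it was 25.9 to 36.1 CPM in capillary, 118 to 194 in arterial, 146 to 356 in venous, 204 to 491 in Plvap-high and 639 to 980 CPM in venular cells, the last in the 3 mice with at least 20 such cells. The arterial and venous ranges overlapped, as did the venous and Plvap-high ranges, while the capillary range lay below all others and the venular range above. With the mouse as a block, log2 differences from the capillary class were 2.13 (SE 0.18) for arterial, 2.88 (SE 0.18) for venous, 3.35 (SE 0.17) for Plvap-high and 4.67 (SE 0.19) for venular cells (adjusted p from 2.46e-18 to 1.86e-10). The size of these differences is uncertain. The capillary level of MI mice lay below the 87.4 CPM of their cells gated as haematopoietic and cannot be told apart from free RNA. The order was the same in healthy mice, at 4.63 to 10.3 CPM in capillary, 36.8 to 67.5 in arterial and 176 to 330 CPM in venous cells, with fitted log2 differences from capillary cells of 2.86 (SE 0.30) and 5.15 (SE 0.25). These are given as a description, since the capillary level rested on 5 to 14 UMIs per mouse, lay below the 47.0 CPM of healthy cells gated as haematopoietic, and did not itself pass the filter on low counts.

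Between groups, Vwf was higher after MI in arterial cells (52.7 ± 12.6 against 142 ± 35.9 CPM, log2 fold change 1.41, SE 0.22, adjusted p = 5.64e-04). In capillary cells it was 6.72 ± 2.56 and 31.6 ± 5.01 CPM, but the healthy mice alone would not have passed the filter on low counts. The fitted log2 fold change there of 2.16 (SE 0.26, adjusted p = 2.44e-04) is given as a description. In venous cells Vwf was 330, 176, 233 and 225 CPM in healthy and 146, 263, 250 and 356 CPM in MI mice, so that the groups overlapped (log2 fold change -0.06, SE 0.25, adjusted p = 0.916). The venous rule leaves out cells that meet the Plvap or Ackr1 rule, and the sign of this value was not stable. It was -0.83 (adjusted p = 0.117) with classes drawn from unthinned UMIs, 0.23 (adjusted p = 0.615) with those cells kept in the venous class, and 0.15 without healthy mouse 227 or MI mouse 244 (adjusted p = 0.851 and 0.740). The fitted difference between the venous and the capillary effect was -2.25 (SE 0.34, adjusted p = 6.88e-05, 24 of 9224 genes called, 0.26%), and that between arterial and capillary cells was -0.79 (SE 0.38, adjusted p = 0.494, with 0.846% of genes called). Both differences rest on the capillary values and are given as a description. The healthy arterial level was near that of healthy cells gated as haematopoietic (47.0 CPM), with mouse 240 below it at 36.8 CPM. The capillary levels call for care, since both were below those of cells gated as haematopoietic (47.0 CPM in healthy and 87.4 CPM in MI mice), so that Vwf UMIs in capillary cells cannot be told apart from free RNA, and Vwf passed the filter on low counts there through the MI mice alone. With classes drawn from unthinned UMIs the capillary log2 fold change was 1.504 (adjusted p = 0.00245).

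F8, the partner of Vwf in plasma, lies on chromosome X (75172715 to 75382615, minus strand), where its span overlaps the pseudogene Gm8522 on the same strand and Gm6039 and Fundc2 on the opposite strand, of which only Fundc2 is in the table, so that its counts are less certain. It was the rarest member, with 643 UMIs over all ECs. It was 3.97, 4.56, 2.25 and 2.13 CPM in the healthy mice 227, 228, 239 and 240, and 5.88, 5.18, 10.8 and 4.98 CPM in MI mice 244, 250, 255 and 256. The groups did not overlap but came close, and mouse 255 stood well above the other MI mice. The log2 fold change was 1.01 (SE 0.34, adjusted p = 0.0391). The call was lost without healthy mouse 227, 239 or 240 (adjusted p = 0.0508, 0.0973 and 0.0983) and without MI mouse 244 or 255 (adjusted p = 0.061 and 0.0947), with a log2 fold change of 0.69 without mouse 255. It was also lost with limma-voom (adjusted p = 0.068), with Xist as a covariate (0.0538), with no gate on cell type (0.0541) and in cells thinned to 1000 UMIs (0.0823). The share of cells with an F8 UMI was 0.255% ± 0.091 in healthy and 0.535% ± 0.298 in MI ECs (p = 0.0571, exact permutation test), against 0.249% of cells gated as haematopoietic in MI mice, and p was 0.0286 (exact) without MI mouse 256. In healthy mice the pooled F8 level of such cells was 3.44 CPM, on 3 UMIs, against 3.23 ± 1.23 CPM in ECs. In MI mice F8 was 14.98 to 18.4 CPM in Plvap-high cells and 11.3 to 25.7 CPM in venular cells, above the 2.99 to 6.88 CPM of capillary cells (log2 differences 1.83, SE 0.35, adjusted p = 1.02e-04 and 2.26, SE 0.46, adjusted p = 2.87e-04). In MI mice F8 passed the filter on low counts through the Plvap-high and venular cells and not through capillary cells. Without MI mouse 255, which gave 160 of the 242 venular cells, the venular difference was 1.83 with an adjusted p of 0.136. F8 was too low to be tested between groups within a class.

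Thbd lies on chromosome 2 (148404466 to 148408188, minus strand) and was the 1 member that fell. It was 291, 244, 353 and 346 CPM in healthy mice and 161, 210, 155 and 189 CPM in MI mice, each in the order given for Vwf. The lowest healthy mouse stayed above the highest MI mouse. The means were 309 ± 51.3 and 179 ± 25.6 CPM (log2 fold change -0.87, SE 0.14, adjusted p = 0.00141). A Thbd UMI was found in 25.1% ± 3.33 of healthy and 15.9% ± 2.54 of MI ECs at 1000 UMIs (p = 0.0286, exact permutation test), above the 4.16% of cells gated as haematopoietic in MI mice. The p was 0.0571 (exact) with the copied cells kept, for cells with at least 2 UMIs, and without MI mouse 244 or 255. Without thinning, when MI cells were deeper, the shares were 43.95% ± 1.37 in healthy and 46.1% ± 2.76 in MI mice (p = 0.257, exact permutation test). The fall of Thbd is relative to all UMIs, and a change in Thbd RNA per cell was not tested.

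The fall of Thbd was seen in each of the 3 classes that could be compared. In arterial cells it went from 239 ± 57.3 to 172 ± 20.2 CPM (log2 fold change -0.58, SE 0.16, adjusted p = 0.0201), in capillary cells from 366 ± 57.0 to 217 ± 40.6 CPM (-0.81, SE 0.14, adjusted p = 0.00264) and in venous cells from 370 ± 146 to 215 ± 38.3 CPM (-0.89, SE 0.23, adjusted p = 0.0215). The capillary call held without any 1 mouse. The arterial call was lost without healthy mouse 239 or 240 or MI mouse 244 (adjusted p = 0.143, 0.0558 and 0.0613), and the venous call without healthy mouse 239 or 240 or MI mouse 244 or 255 (adjusted p = 0.124, 0.0794, 0.0521 and 0.0705). Differences between the classes in this effect were 0.30 (SE 0.15, adjusted p = 0.511) for arterial and -0.03 (SE 0.16, adjusted p = 0.993) for venous against capillary cells. Thbd varied little between classes compared with Vwf. In MI mice it was 150.5 to 195 CPM in arterial, 172 to 269 in capillary, 165 to 257 in venous, 156 to 209 in Plvap-high and 90.9 to 182 CPM in venular cells, and each range overlapped the next. The venular class was lower than the capillary class within mice (log2 difference -0.67, SE 0.15, adjusted p = 0.00115), although without MI mouse 255 it was -0.42 (adjusted p = 0.0965). Arterial cells were lower than capillary cells in both groups (healthy -0.64, SE 0.11, adjusted p = 3.04e-06, and MI -0.35, SE 0.10, adjusted p = 0.016), but in MI mice not without mouse 250 or 256 (adjusted p = 0.173 and 0.15).

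Procr lies on the plus strand of chromosome 2 (155751117 to 155755471) and had the largest log2 fold change of the members. It was 8.11, 7.67, 8.73 and 7.19 CPM in healthy and 25.7, 21.9, 52.4 and 21.2 CPM in MI mice, in the same order. Healthy mice were closely alike, and mouse 255 stood far above the other MI mice. The means were 7.93 ± 0.655 and 30.3 ± 14.8 CPM (log2 fold change 1.84, SE 0.29, adjusted p = 0.00153), and without mouse 255 the log2 fold change was 1.46. A Procr UMI was found in 0.719% ± 0.161 of healthy and 2.35% ± 1.19 of MI ECs (p = 0.0286, exact permutation test), against 1.33% of cells gated as haematopoietic and 5.96% of those gated as pericytes or smooth muscle in MI mice. In healthy mice 0.714% of cells gated as haematopoietic held one (1 of 140), and their pooled level was 8.03 CPM, so that the healthy EC values were at the level of these cells. Without any 1 healthy mouse p was 0.0571 (exact), and for cells with at least 2 UMIs it was 0.0857 (exact).

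By class, Procr was highest where Vwf was highest. In MI mice it was 8.66 to 12.7 CPM in capillary, 22.3 to 39.0 in arterial, 17.05 to 41.7 in venous, 69.6 to 107 in Plvap-high and 146 to 193 CPM in venular cells. Arterial and venous cells overlapped, and the other neighbours in this order did not. Against capillary cells the log2 differences were 2.86 (SE 0.16, adjusted p = 5.16e-15) for Plvap-high and 3.80 (SE 0.18, adjusted p = 2.61e-16) for venular cells, and 1.26 (SE 0.20, adjusted p = 9.60e-06) and 1.16 (SE 0.22, adjusted p = 3.54e-04) for arterial and venous cells. The venous difference was 0.35 (adjusted p = 0.30) with classes drawn from unthinned UMIs and 0.68 (adjusted p = 0.0946) where 1 UMI of Plvap was enough for the Plvap rule. Between groups, Procr in arterial cells was 0, 9.63, 8.12 and 6.13 CPM in healthy and 28.0, 22.3, 39.0 and 25.9 CPM in MI mice. The healthy mean of 5.97 CPM rested on 10 UMIs in all, below the 8.03 CPM of healthy cells gated as haematopoietic, and Procr passed the filter on low counts there through the MI mice alone, so the fitted log2 fold change of 2.001 (SE 0.42, adjusted p = 0.00451) is given as a description. With classes from unthinned UMIs it was 0.67 (adjusted p = 0.219). In capillary cells it was 0.94 (SE 0.37, adjusted p = 0.0942), or 1.35 (adjusted p = 0.0412) without healthy mouse 227. Both values are a description too, since the healthy mice alone would not have passed the filter on low counts there. Mouse 227 (9.27 CPM) was the only healthy mouse above the 7.41 CPM that the filter asked for. The capillary level of MI mice, 10.8 ± 1.67 CPM, was below that of cells gated as haematopoietic, 19.0 CPM, and so cannot be told apart from free RNA either.

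Tfpi lies on the minus strand of the same chromosome (84432855 to 84476775), and had the smallest adjusted p of the members. It was 29.97, 31.9, 31.7 and 36.2 CPM in healthy and 66.3, 63.5, 78.8 and 53.1 CPM in MI mice. Each MI mouse was thus well above the highest healthy mouse. The means were 32.5 ± 2.65 and 65.4 ± 10.6 CPM (log2 fold change 0.92, SE 0.12, adjusted p = 6.00e-04). A Tfpi UMI was found in 2.87% ± 0.489 of healthy and 5.91% ± 1.73 of MI ECs (p = 0.0286, exact permutation test), against 2.41% of cells gated as haematopoietic in MI mice. Here too p was 0.0571 (exact) without any 1 healthy mouse.

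Tfpi rose after MI in capillary cells (31.7 ± 6.24 to 55.0 ± 11.7 CPM, log2 fold change 0.71, SE 0.18, adjusted p = 0.0202). In arterial cells it was 18.1 ± 6.17 and 46.8 ± 9.27 CPM, but the healthy mice alone would not have passed the filter on low counts, so the fitted log2 fold change of 1.18 (SE 0.27, adjusted p = 0.00841) is given as a description. It was 47.2 ± 18.3 and 65.4 ± 8.04 CPM in venous cells (0.43, SE 0.29, adjusted p = 0.41), a description too, since the same limit held there. The healthy arterial level was not above that of healthy cells gated as haematopoietic (19.5 CPM, on 17 UMIs). The capillary call was lost without healthy mouse 227 or 239 or MI mouse 244 or 250 (adjusted p = 0.0533, 0.0528, 0.0689 and 0.065). The MI effects in arterial and in venous cells were not shown to differ from that in capillary cells (differences 0.48, SE 0.30, adjusted p = 0.692 and -0.29, SE 0.33, adjusted p = 0.91). In MI mice, Tfpi was highest in Plvap-high cells (94.5 to 145 CPM) and venular cells (70.3 to 119 CPM), which overlapped each other. Both were above capillary cells (log2 differences 0.99, SE 0.14, adjusted p = 6.88e-07 and 0.91, SE 0.19, adjusted p = 4.70e-04), the venular class not without mouse 255 (0.73, adjusted p = 0.126), while arterial (-0.25, SE 0.16, adjusted p = 0.322) and venous cells (0.21, SE 0.17, adjusted p = 0.474) did not pass the test against capillary cells. In healthy mice arterial cells were at -0.73 (SE 0.29, adjusted p = 0.0707), which passed with the copied cells kept (adjusted p = 0.0342).

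Procr and Tfpi rose together and were both higher in the Plvap-high than in the capillary cells of MI mice, as was Vwf. The same held in venular cells, for Tfpi not without mouse 255, and F8 was tested with the limit on low counts given above. The start regions of Vwf and F8 were not used here. For Procr and Tfpi the 150 bases that precede both the RefSeq and the GENCODE start of each gene are given from RefSeq (GRCm38.p6), 5′ to 3′ on the strand of the gene. Capitals mark matches on either strand to motifs of factors active in ECs or at gene starts: the AP-1 motif is TGACTCA, the box of Klf factors is CACCC, the ETS core is GGAAG and the TATA motif is TATAAA. No motif shared bases with another in these windows. The first is chr2:155750967-155751116 on the plus strand and the second chr2:84476776-84476925 on the minus strand.
Procr: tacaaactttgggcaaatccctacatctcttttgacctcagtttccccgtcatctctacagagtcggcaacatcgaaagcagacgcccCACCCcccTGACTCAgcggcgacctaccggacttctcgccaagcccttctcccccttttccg
Tfpi: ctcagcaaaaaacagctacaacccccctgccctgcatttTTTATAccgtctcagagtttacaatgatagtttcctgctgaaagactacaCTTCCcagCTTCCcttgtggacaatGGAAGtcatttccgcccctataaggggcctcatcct
The Procr window held 1 AP-1 match and 1 Klf box and neither of the other motifs, and the Tfpi window held 3 ETS matches and 1 TATA match and neither of the others. Among the 150 bases before each of 32851 RefSeq starts, an AP-1 match was present in 2.84%, a Klf box in 37.4%, an ETS match in 47.7% and a TATA match in 7.57%. The windows shared none of these matches, and a match describes letters only, not binding.

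Plat lies on chromosome 8 (22757727 to 22782844, plus strand) and was the only member whose groups overlapped over all ECs. It was 116, 82.3, 157 and 118 CPM in healthy and 194, 151, 172 and 148 CPM in MI mice. Healthy mouse 239 lay above MI mice 250 and 256. The log2 fold change was 0.40 (SE 0.16, adjusted p = 0.0775), and without mouse 239 it was 0.57 (adjusted p = 0.0153). The share of ECs with a Plat UMI was 10.1% ± 2.08 in healthy and 14.5% ± 1.78 in MI mice (p = 0.0286, exact permutation test), against 3.33% of cells gated as haematopoietic in MI mice. The p was 0.0571 (exact) without healthy mouse 228 or 240 or any 1 MI mouse, 0.0857 (exact) in cells thinned to 2000 UMIs and 0.257 (exact) for cells with at least 2 UMIs. Cells gated as pericytes or smooth muscle held Plat at a like level, 142 CPM over the MI mice.

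By class, Plat was highest in arterial cells. In healthy mice arterial cells held 173 to 278 CPM and capillary cells 61.6 to 106 CPM, a log2 difference of 1.304 within mice (SE 0.13, adjusted p = 4.84e-12). In MI mice arterial cells held 240.4 to 276 CPM and capillary cells 137 to 212 CPM, a difference of 0.66 (SE 0.10, adjusted p = 4.76e-06). Capillary cells rose from 91.3 ± 20.2 to 160.2 ± 34.9 CPM after MI (log2 fold change 0.73, SE 0.16, adjusted p = 0.00962), while arterial cells were at 224 ± 45.6 and 257 ± 18.6 CPM (0.11, SE 0.14, adjusted p = 0.669). The difference between these effects was -0.63 (SE 0.16, adjusted p = 0.0263, where 0.846% of 9224 genes were called). It was lost without healthy mouse 228, 239 or 240 or MI mouse 244 (adjusted p = 0.0765, 0.267, 0.109 and 0.177), with values from -0.73 to -0.52 when any 1 mouse was left out. In the other classes of MI mice Plat was below its capillary level, where Vwf and Procr were above theirs. It was 99.2 to 144 CPM in venous, 81.8 to 103 in Plvap-high and 41.1 to 96.7 CPM in venular cells, with log2 differences from capillary cells of -0.39 (SE 0.12, adjusted p = 0.0199), -0.75 (SE 0.11, adjusted p = 1.66e-06) and -1.51 (SE 0.18, adjusted p = 5.26e-08). The venous difference was lost without MI mouse 244 or 250 (adjusted p = 0.0751 and 0.139).

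Counted over classes, 4 of 5 members tested were called between groups in arterial cells (12.8% of all genes tested there), 4 of 5 in capillary cells (15.9%) and 1 of 4 in venous cells (8.09%). The first 2 counts hold calls that low counts limit: the healthy mice alone would not have passed the filter for Procr and Tfpi in arterial and Vwf in capillary cells, and without these the called members were Vwf and Thbd in arterial and Thbd, Tfpi and Plat in capillary cells. Against the capillary class of MI mice, 4 of 6 members were called in arterial (17.1%), 3 of 6 in venous (14.4%), 6 of 6 in Plvap-high (29.5%) and 6 of 6 in venular cells (22.7%). The last 2 counts include F8, which passed the filter only through those classes, where it is high, and so had to differ. In both Plvap-high and venular cells, Vwf, Procr and Tfpi were higher (15.8% and 12.3% of all genes were), beside F8 with that limit, and Thbd and Plat lower (13.7% and 10.3%), although without MI mouse 255 the venular count was 3, with Thbd, Tfpi and F8 lost. Thbd in Plvap-high cells differed by -0.28 (SE 0.10, adjusted p = 0.0373), and this was lost without MI mouse 250 or 256 (adjusted p = 0.183 and 0.11) and with classes from unthinned UMIs (-0.12, adjusted p = 0.303). In healthy mice 3 of 4 members tested were called in arterial (20.2%) and 1 of 4 in venous cells (9.63%), counts that include Vwf, which passed the filter there only through arterial and venous cells.

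**Figure D2:**
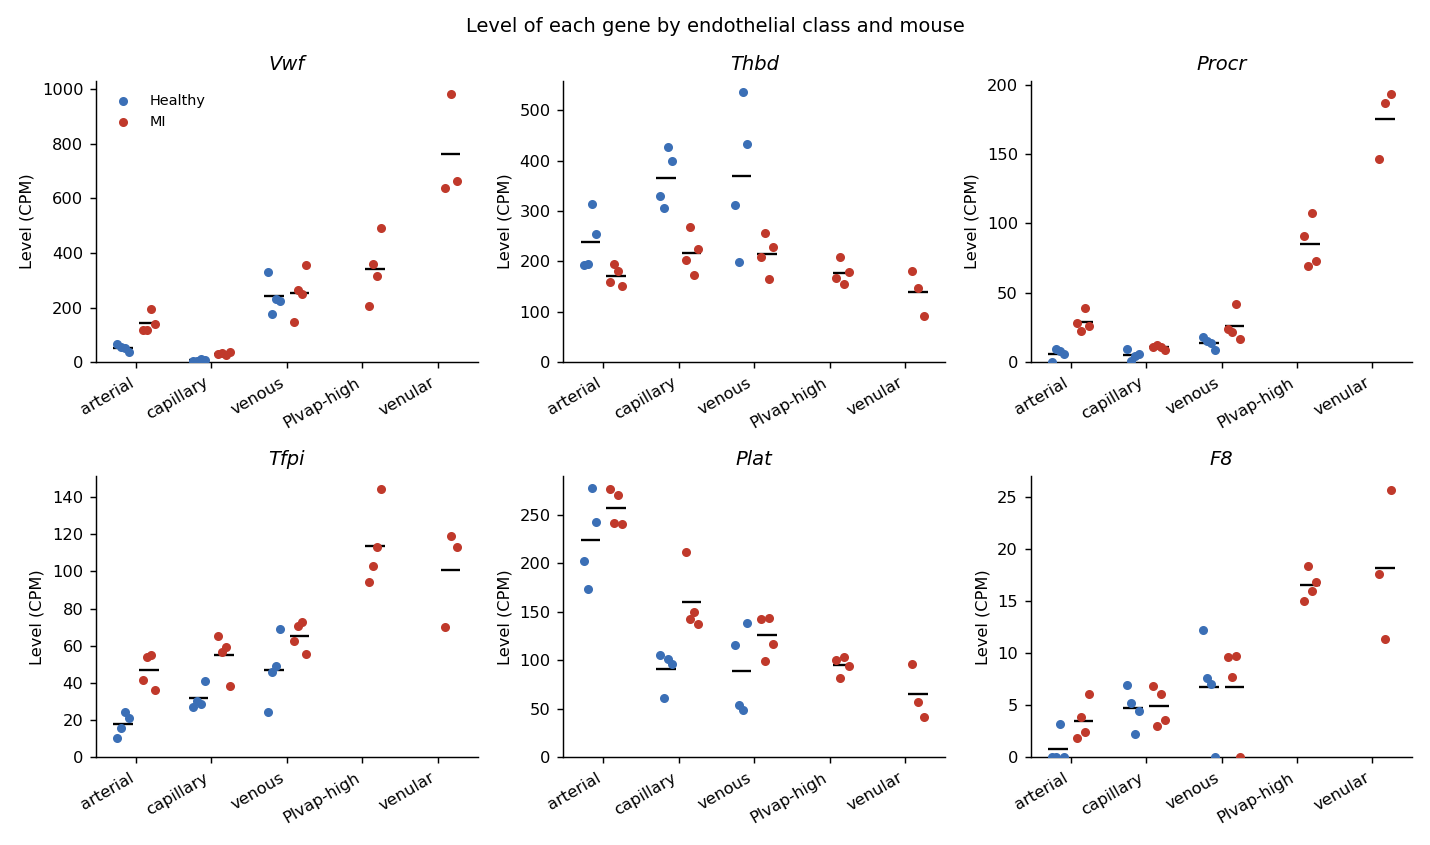
Level of each gene in CPM by endothelial class, on axes that start at 0. Each point is 1 mouse with at least 20 cells of the class, bars are group means, and healthy mice held too few Plvap-high and venular cells to be shown. Vwf and Procr were highest in the venular cells of MI mice, at 639 to 980 and 146 to 193 CPM, where Plat was lowest.

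**Figure D3:**
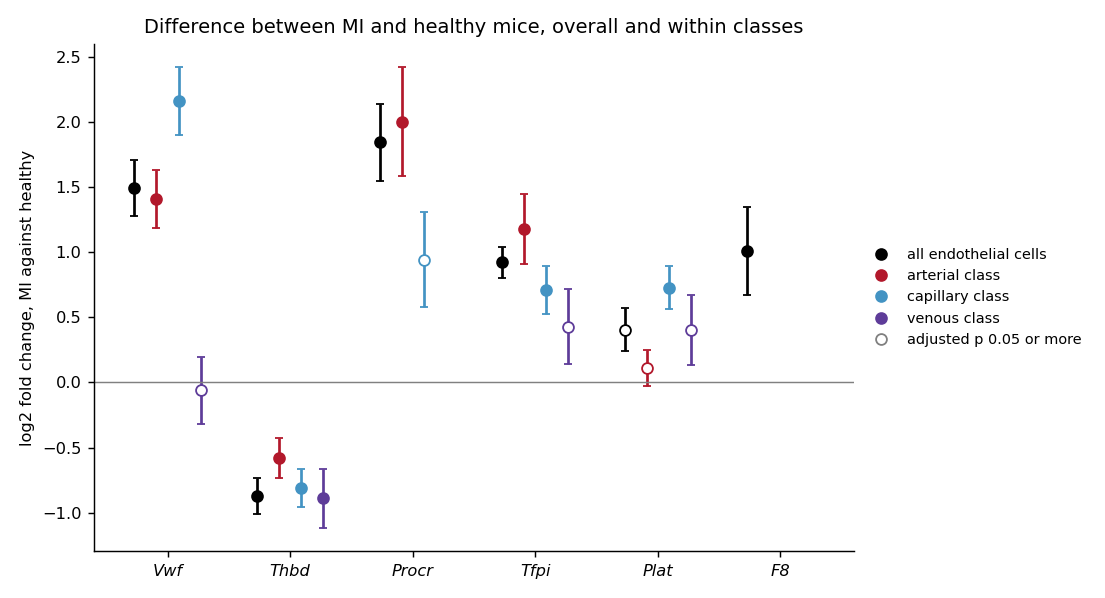
Log2 fold change of MI against healthy mice with its standard error, over all ECs and within the 3 classes found in both groups. Filled points passed an adjusted p of 0.05, open points did not, and combinations too low to be tested have no point. Thbd lay below 0 in all ECs and in the 3 classes, from -0.89 to -0.58, and Vwf was at -0.06 in venous cells. The points for Vwf (2.16) and Procr in capillary cells, for Procr and Tfpi in arterial cells and for Tfpi in venous cells are a description only. The healthy mice alone would not have passed the filter on low counts for these.

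Vwf and Procr RNA of MI mice lay out of proportion in the classes that were nearly absent from healthy hearts. Under the class rules, which leave 70.8% of the ECs of MI mice unclassed, Plvap-high and venular cells made up 5.92% and 1.57% of the cells and held 8.28% and 2.08% of all UMIs of MI mice. These shares are set by the rule: at the same depth of 1000 UMIs, at least 1 Plvap UMI was found in 16.0% of the MI ECs with and 16.2% of those without a Thbd UMI. The 2 classes held 20.1% ± 2.51 and 10.48% ± 6.89 of the Vwf UMIs and 23.8% ± 6.72 and 9.48% ± 7.26 of the Procr UMIs (SD, n = 4). For Tfpi these shares were 13.8% ± 3.43 and 3.08% ± 3.13, and for F8 20.3% ± 2.90 and 5.77% ± 4.90. For Thbd they were 8.32% ± 3.64 and 1.43% ± 1.29, and for Plat 4.74% ± 2.08 and 0.67% ± 0.458. Thbd thus lay near the share of all UMIs in these cells and Plat below it. Mouse 255 weighed on the venular shares: without it they were 7.25% for Vwf, 5.99% for Procr, 1.51% for Tfpi, 3.40% for F8, 0.847% for Thbd and 0.461% for Plat, beside 0.660% of cells and 0.963% of all UMIs (n = 3, an alternative added after seeing the data). In healthy mice the 7 Plvap-high cells, 0.067% of ECs, held 5.01% ± 4.02 of the Vwf UMIs, from 0.407% to 9.76% in the 4 mice.

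**Figure D4:**
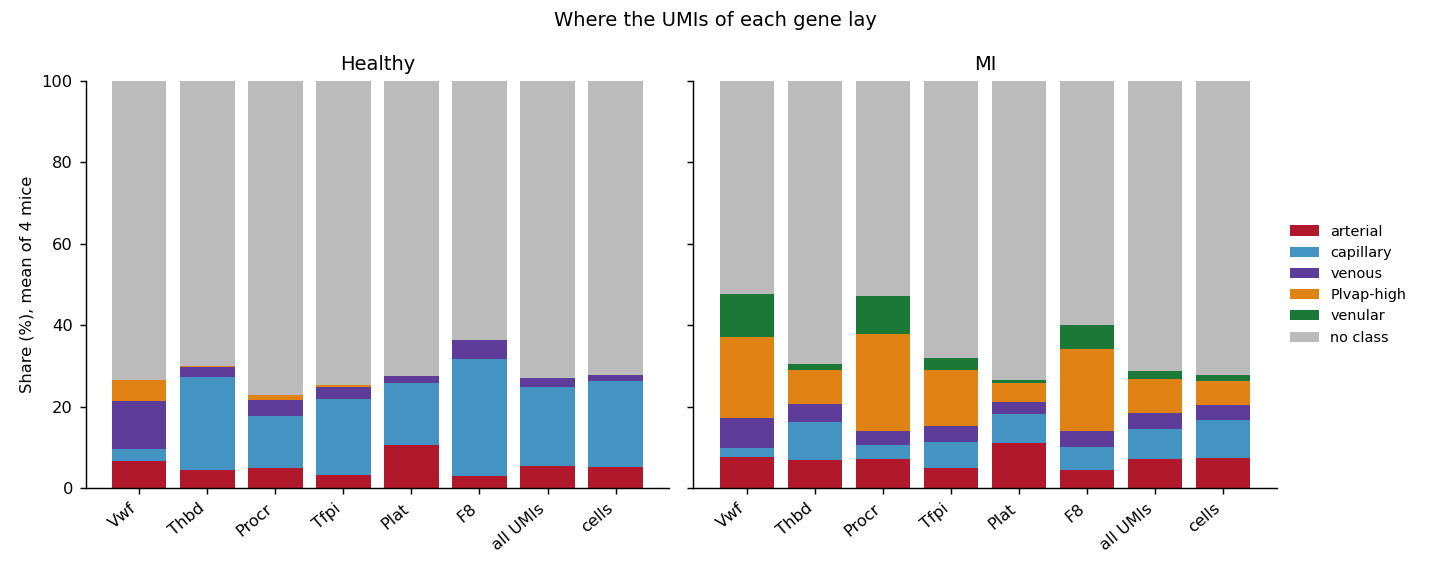
Share of the UMIs of each gene that lay in each endothelial class, as the mean of 4 mice, beside the share of all UMIs and of cells. Plvap-high and venular cells held 8.28% and 2.08% of all UMIs in MI mice but 20.1% and 10.48% of those of Vwf. Cells with no class include mixed, unclassed and shallow cells.

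To set the changes in level beside the shift in classes, each mouse was given the mean level of its arterial, capillary and venous cells with equal weights. Plat, which had not passed the test over all ECs, was higher after MI in this comparison. Its difference on the log2(CPM + 1) scale was 0.44, from 7.06 ± 0.315 to 7.4995 ± 0.178 (p = 0.0286, two-sided exact permutation test). Procr was at 1.26, from 3.23 ± 0.166 to 4.49 ± 0.345 (p = 0.0286, exact), which is given as a description. Its healthy means were 5.17, 5.97 and 14.1 CPM in capillary, arterial and venous cells, on few UMIs, beside 8.03 CPM in healthy cells gated as haematopoietic. In arterial cells Procr passed the filter on low counts through the MI mice alone. The other 4 members, all called over all ECs, did not pass here. Differences were 0.80 for Tfpi and -0.66 for Thbd (p = 0.0571 each, exact), 0.50 for Vwf (p = 0.0857, exact) and 0.33 for F8 (p = 0.457, exact). These depended on the rule for the classes: drawn from unthinned UMIs, Procr was at 0.38 (p = 0.171, exact) and Vwf at -0.11 (p = 0.743, exact), while Thbd was at -0.73 (p = 0.0286, exact). They also depended on the weights: with the mean class shares as weights, Vwf was at 0.89, Tfpi at 0.84 and Thbd at -0.68 (p = 0.0286 each, exact). On the log2(CPM + 10) scale the Procr difference was 0.78 (p = 0.0286, exact). With cells that met the Plvap or Ackr1 rule kept as venous, Tfpi was at 0.93 (p = 0.0286, exact). The Plat call was lost without healthy mouse 228 (0.28, p = 0.0857, exact) and, with p = 0.0571 each (exact), without any 1 of the 4 MI mice and with classes from unthinned UMIs. With the copied cells kept, Thbd was at -0.68 (p = 0.0286, exact).

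The other genes of the pathway were taken from lists, of which 47 of 62 genes were in the table. Of the clotting factors, which are made mostly in the liver, only F10 and F13a1 were high enough to be tested and neither was called, and F3 (tissue factor) was not. Over all genes 18.7% were higher and 18.9% lower after MI. Of 9 further genes tested on the list named for anticoagulants, 5 were higher and 1 lower. The list is broad, and not every gene on it is itself an anticoagulant. Entpd1 (log2 fold change 1.17, SE 0.17, adjusted p = 0.00111) rose with Tfpi2 (0.93, SE 0.15, adjusted p = 0.00162), a relative of Tfpi. Entpd1 acts with Nt5e to break down extracellular nucleotides that activate platelets. Nt5e was at 0.719 ± 0.139 CPM in healthy and 3.62 ± 2.24 CPM in MI mice, with 6.96 CPM in mouse 255. Healthy mice 227, 228 and 240 lay below the 0.916 CPM that the filter on low counts asked for. The healthy mice alone would not have passed it. The fitted log2 fold change of Nt5e (2.21, SE 0.48, adjusted p = 0.00644) is therefore a description, and Nt5e is among the 5 counted as higher. Gas6 fell (-0.32, SE 0.09, adjusted p = 0.0169). Pros1, the protein S cofactor of protein C, was at 93.3 ± 6.75 CPM in healthy and 118 ± 16.7 CPM in MI mice (0.25, SE 0.10, adjusted p = 0.0775).

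Of 7 fibrinolysis genes tested, 4 were higher and 1 lower (18.7% and 18.9% of all genes). Serpine2, for protease nexin-1, which inhibits thrombin and plasminogen activators, was at 1.83 ± 1.54 CPM in healthy and 6.97 ± 1.51 CPM in MI mice (log2 fold change 1.77, SE 0.41, adjusted p = 0.0087). Plaur, the urokinase receptor, went from 18.3 ± 7.88 to 48.4 ± 10.2 CPM (1.303, SE 0.28, adjusted p = 0.00581), and was also higher after MI in capillary cells (1.16, SE 0.32, adjusted p = 0.0266) and arterial cells (1.77, SE 0.49, adjusted p = 0.023). In venous cells Plaur was at 1.18 and did not pass (SE 0.45, adjusted p = 0.119). Plau, urokinase itself, rose as well (1.15, SE 0.36, adjusted p = 0.0291), while the plasminogen receptor gene Plgrkt fell (-0.58, SE 0.11, adjusted p = 0.0037). For Serpine2 and Plau the healthy mice alone would not have passed the filter on low counts, which asked for 0.916 CPM. Serpine2 was at 0.662 CPM in healthy mouse 227 and Plau at 0.799 CPM in healthy mouse 240. Both fold changes are therefore a description, and both genes are among the 4 counted as higher.

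Of 3 genes tested on the list labelled thrombin receptors, F2rl3 was higher (1.43, SE 0.15, adjusted p = 2.74e-04), and F2r was at 125 ± 26.3 and 164 ± 32.1 CPM (0.31, SE 0.16, adjusted p = 0.168). Within capillary cells F2r was higher after MI (0.58, SE 0.18, adjusted p = 0.045). In MI mice F2r was lower in each other class than in capillary cells. The differences were -0.58 for arterial (SE 0.10, adjusted p = 7.84e-05), -0.41 for venous (SE 0.11, adjusted p = 0.00962), -0.73 for Plvap-high (SE 0.10, adjusted p = 1.77e-06) and -1.40 for venular cells (SE 0.16, adjusted p = 4.94e-08). Of 15 genes for Weibel-Palade bodies and for the secretion of factors, 5 were higher and 2 lower, where 37.6% of all genes were called in either direction. Selp, the P-selectin stored beside Vwf, was at 2.295 ± 1.03 CPM in healthy and 39.4 ± 35.1 CPM in MI mice (4.05, SE 0.65, adjusted p = 0.00153), with 91.9 CPM in mouse 255 and 19.0 to 24.5 CPM in the other MI mice, and in MI mice it was higher in venous (3.69, SE 0.29), Plvap-high (4.59, SE 0.24) and venular cells (6.87, SE 0.23) than in capillary cells, but Selp was also one of the markers against which the venular class was checked. Cd63 (1.79, SE 0.23, adjusted p = 5.78e-04), a membrane protein of these bodies, and Mcfd2 (0.41, SE 0.08, adjusted p = 0.00314), part of the receptor that carries factor VIII out of the endoplasmic reticulum, rose too. Edn1 (-0.68, SE 0.22, adjusted p = 0.0358), for the vasoconstrictor endothelin, and Stxbp5 (-0.43, SE 0.12, adjusted p = 0.0177) fell. The shear-stress factors Klf2 and Klf4, transcription factors that blood flow induces in ECs, were both lower (-0.58, SE 0.19, adjusted p = 0.0343 and -0.79, SE 0.24, adjusted p = 0.028). In arterial cells, too, both were lower after MI (-0.82, SE 0.14, adjusted p = 8.13e-04 and -1.004, SE 0.18, adjusted p = 0.00167), and in capillary cells they were at -0.37 (SE 0.19, adjusted p = 0.20) and -0.55 (SE 0.24, adjusted p = 0.131). In venous cells Klf4 was lower (-0.76, SE 0.18, adjusted p = 0.014) and Klf2 was at -0.45 (SE 0.16, adjusted p = 0.103). Whether they bear on the level of any member was not tested. Over the 6 lists, medians of the log2 fold change ran from -0.68 for the 2 shear-stress factors to 0.82 for the list labelled thrombin receptors, beside -0.02 for all genes. The median of 0.82 is the value of F2rl1, which did not pass the test.

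**Figure D5:**
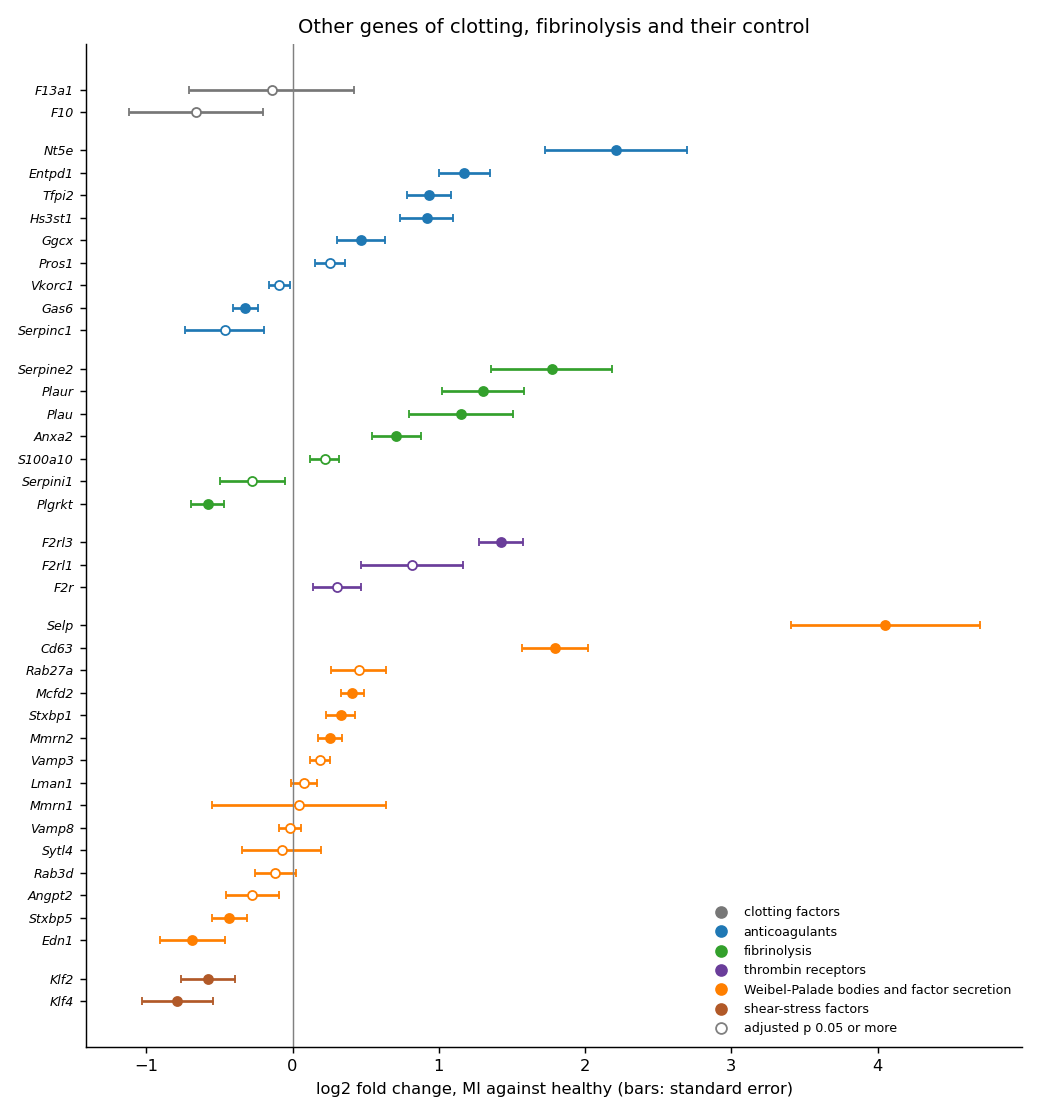
Log2 fold change of MI against healthy mice over all ECs for the genes of the 6 lists that were tested, with standard errors. Filled points passed an adjusted p of 0.05 over all genes tested and open points did not. Selp at 4.05 and Nt5e at 2.21 were farthest to the right, and Klf4 at -0.79 farthest to the left. Among the filled points, those of Nt5e, Serpine2 and Plau are a description only. The healthy mice alone would not have passed the filter on low counts for these.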

How the data were processed

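Single ECs were measured in 8 libraries, 1 per mouse. The authors deposited 1 table of raw counts, whole numbers of UMIs per gene and cell, without normalization. The submitters' processing notes name Cell Ranger, mm10, R 3.5.2 and Seurat 2.3. In the deposited cells, genes numbered 403 or more, and the highest mitochondrial share was 19.96%. A cell whose barcode recurred in another library with at least 90% of its UMIs matched was left out. No doublet caller was run. Cells that met conflicting rules (295), such as those of arterial and capillary cells, and shallow healthy cells (572) had no class. Counts were summed per mouse, or per mouse and class with at least 20 cells, and tested with edgeR 4.0.16 in R 4.3.3 (TMM, filterByExpr, quasi-likelihood, Benjamini-Hochberg at 0.05 over all genes tested). Classes were compared within mice, with the mouse as a block. Single values were compared by exact permutation tests. Summed EC UMIs were 4821720 to 7561153 in healthy and 14269525 to 23556390 in MI mice, and intervals of single shares would cover counting error only. Levels were read from unthinned UMIs and shares from cells thinned to 1000 UMIs. Alternatives included DESeq2 1.42.0, limma-voom (limma 3.58.1), RLE factors, no filter, other gates and class rules, copies kept, and each mouse left out. The named genes were the 6 members, the class markers, the 3 highest and 3 lowest called genes of each list, and Plau, F3, F2r, Pros1 and Selp. One gene of the lists is not reported here. The members, classes and lists were chosen with earlier results of these data known. Names in the table matched GENCODE symbols, and coordinates are those of GRCm38.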

Additional observations from a re-analysis of the deposited data

Results flagged for a closer look

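In 4 of 78 groups of 4 mice, 1 mouse stood apart from the rest by Dixon's criterion, where chance gives about 1 in 20. Among MI mice, mouse 255 was high for Procr over all ECs (52.4 CPM) and for F8 over all ECs (10.8 CPM). Mouse 244 was high for Plat in capillary cells of MI mice (212 CPM). Healthy mouse 239 was the only healthy mouse with F8 UMIs in arterial cells (2 UMIs, 3.25 CPM). Mouse 255 also held the most Plvap-high and venular cells (398 and 160), and the part of this in its values was not tested.

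The fitted MI effect was flagged as different between classes for Vwf and Plat. For Vwf the fitted value in venous minus that in capillary cells was -2.25 on the log2 scale (adjusted p = 6.88e-05 by edgeR). In the settings tried this difference lay between -2.55 and -1.88. It is given as a description only. Vwf passed the filter on low counts in capillary cells through the MI mice alone and cannot be told apart from free RNA there. For Plat the MI effect was lower in arterial than in capillary cells (-0.63, adjusted p = 0.0263). That call was lost without healthy mouse 228, 239 or 240 or MI mouse 244 (adjusted p = 0.0765, 0.267, 0.109 and 0.177).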

How the results depend on the processing

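Of 869 values of single members recomputed under other settings or without a mouse, 772 kept their direction and their side of the threshold, over 74 results. With copies kept, the members' log2 fold changes over all ECs were 1.49 for Vwf, 1.80 for Procr and -0.84 for Thbd, with the same 5 members called. Over all ECs, Vwf, Thbd, Procr and Tfpi were called under every setting run, while F8 was lost with Xist as a covariate, limma-voom, no gate or thinned cells (adjusted p = 0.0538 to 0.0823). Genes called numbered 4612, and 2660 with cells thinned to 1000 UMIs. Members with a changed share of cells numbered 5, 2 at a threshold of 2 UMIs, and 2 to 5 without 1 mouse. At fixed class shares 2 members passed (Procr as a description only), 1 with classes from unthinned UMIs, 5 with mean class shares as weights and 1 to 3 without 1 mouse. Without 1 mouse, members called ranged from 0 to 1 within venous cells, from 3 to 6 between venular and capillary cells, and from 0 to 1 for the arterial interaction. Directions turned as follows. The Thbd share was 2.15 points higher after MI in unthinned cells. Vwf at fixed class shares was -0.11 with classes from unthinned UMIs. With cells that also met the Plvap or Ackr1 rule kept in the venous class, an alternative added after seeing the data, Vwf within venous cells was 0.23 and the venous interaction of Procr 0.54, while that of Vwf was -1.95. With classes from unthinned UMIs, venous against capillary cells gave 0.059 for Plat in healthy and 0.092 for Thbd in MI mice. With classes from unthinned UMIs Vwf within venous cells was -0.83. Without 1 mouse it ranged from -0.27 to 0.15, venous interactions from -0.16 to 0.14 for Thbd and from -0.47 to 0.092 for Procr, venous against capillary cells in healthy mice from -0.13 to 0.16 for Thbd and from -0.24 to 0.23 for Plat, and F8 in arterial against capillary cells from -0.86 to 0.042. The cause of these changes was not tested. A minimum of 50 cells left too few healthy mice for the venous class. No paired analysis was possible because healthy and MI mice share no numbers. Depth limits F8, and Procr in healthy classes, to few UMIs.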

Other observations

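The UMIs of Plvap that place a cell in the Plvap-high class are also counted here, so the shares below restate the comparison of classes for single cells and add no support to it. At 1000 UMIs per cell, 1359 ECs of MI mice held a Vwf UMI, and 39.8% of them also held a Plvap UMI against 14.0% of cells without Vwf. The same pair of shares was 41.9% and 15.6% for Procr, 38.1% and 16.1% for F8 (84 cells) and 23.9% and 15.7% for Tfpi. For Thbd it was 16.0% and 16.2%, and for Plat 12.4% and 16.8%. Vwf UMIs were found in 19.7% of the 375 cells with Procr and in 8.25% of those without. In healthy mice 12 of 245 cells with Vwf, 4.90%, held a Plvap UMI, against 0.254% of the others. These shares pool cells of 4 mice and describe these libraries.

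Over 31 sums of mouse and class, which share libraries, the genes whose log2(CPM + 10) followed the members most closely among 6244 were Spint2 (Pearson r = 0.96), Eln and Bgn for Vwf, Pltp (0.87), 2610037D02Rik and Palm for Thbd, Csf2rb (0.96), Csf2rb2 and Tmem176a for Procr, Col15a1 (0.92), Cotl1 and Tmem173 for Tfpi, and Tpgs2 (0.84), Nudt4 and Mpzl1 for Plat. For F8 they were Rpl13 (0.85), Rps7 and Serpinb1a, over few UMIs. Csf2rb and Csf2rb2 are close copies whose reads can be split between them. Bgn and Tmem176a were among the markers of the Plvap-high and venular classes.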
